A study of Mus musculus with 8 samples.

Results

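The genes described here encode the main proteins of mouse milk: the caseins Csn1s1, Csn1s2a, Csn1s2b, Csn2 and Csn3, and the whey proteins Wap, Lalba and Glycam1. They were found by matching the accession of each array probe to a gene table and keeping the probes of these symbols, which gave 9 probes for 8 of the 18749 genes with a matched probe. Each gene had 1 probe except Wap, which had a pair of them. All 8 genes passed the filter on dim probes and were among the 14137 genes tested, and none had to be left out.

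No. 4 mammary glands were taken at lactation day 1 from age-matched C57/Bl6 dams, 4 of them wild type (WT) and 4 lacking Th-POK (KO). Th-POK is a zinc finger transcription factor encoded by Zbtb7b and best known for directing T cells to the CD4 fate. The KO is a knockout of the whole animal, so Th-POK was missing from immune cells as well as from the gland's epithelium, and whole gland tissue was measured. Total RNA of each dam was labelled with Cy3 and hybridized to a one-colour Agilent mouse array of its own, on which the brightness of a probe is the measurement. Values below are log2 processed signals, quantile-normalized between the 8 arrays, unless given otherwise. The slide was the same for the 4 WT arrays and a different one for the 4 KO arrays, and genotype and slide cannot be told apart.

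Zbtb7b was well above background on 4 of 4 WT arrays and on 0 of 4 KO arrays, where it was at least 81.5-fold lower (limma, Benjamini-Hochberg adjusted p = 5.71e-09), as the labels say. Between 67.1% and 75.6% of spots on an array were well above background. The 75th percentile of the processed signal differed 1.44-fold between the dimmest and the brightest array. In limma, 16.5% of the 14137 genes reached an adjusted p under 0.05 and are referred to as called, 7.53% higher and 8.96% lower in the KO glands.

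Caseins are the phosphoproteins that carry calcium phosphate in milk, and alveolar luminal cells pack them into micelles in the Golgi. Whey proteins remain in solution. Prolactin and glucocorticoids switch the genes of both groups on during pregnancy and raise them further at birth, through the transcription factor Stat5 and its partners. Lalba differs from the others in that its product is a subunit of lactose synthase, so it sets the making of milk sugar, which draws water into milk.

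Promoter sequence was at hand for 6 of the 8 genes in RefSeq, on mouse build GRCm38.p6, as a window from 250 bases before to 50 bases after the start of each gene. Stat5 binds sites of the form TTCNNNGAA, which read the same on both strands. That motif lay in the window of 4 of the 6 genes (Csn1s1, Csn2, Glycam1 and Csn1s2a), and 8.30% of all 32851 promoter windows of the same length held it. A match describes the letters and does not show that a factor binds there. The window of Wap, like that of Lalba, held no match. The stretches before the start of Csn1s1, Csn2 and Glycam1 are shown because they hold the match, the one of Csn1s2a because its match lay past the start, and that of Lalba because it was the gene of the group farthest from its WT level, with no match in its window. Each is printed 5′ to 3′ along the gene's own strand, with the motif in capitals.
Csn1s1, 150 bases before the start, chr5:87666058-87666207, plus strand, motif beginning 100 bases before the start: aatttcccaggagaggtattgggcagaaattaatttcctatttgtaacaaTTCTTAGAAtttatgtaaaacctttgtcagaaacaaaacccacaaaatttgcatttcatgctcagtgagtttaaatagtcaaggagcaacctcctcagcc
Csn2, 150 bases before the start, chr5:87699426-87699575, minus strand, motif beginning 93 bases before the start: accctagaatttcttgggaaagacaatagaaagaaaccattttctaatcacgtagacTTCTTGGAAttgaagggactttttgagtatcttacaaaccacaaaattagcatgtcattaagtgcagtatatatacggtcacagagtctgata
Glycam1, 150 bases before the start, chr15:103565082-103565231, minus strand, motif beginning 145 bases before the start: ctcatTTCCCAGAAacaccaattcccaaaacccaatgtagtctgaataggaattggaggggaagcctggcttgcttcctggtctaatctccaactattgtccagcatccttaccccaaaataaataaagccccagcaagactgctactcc
Csn1s2a, 30 bases around the match past the start, chr5:87774459-87774488, plus strand: attatagtgctTTCTTAGAAttacaatgac
Lalba, 150 bases before the start, chr15:98482684-98482833, minus strand: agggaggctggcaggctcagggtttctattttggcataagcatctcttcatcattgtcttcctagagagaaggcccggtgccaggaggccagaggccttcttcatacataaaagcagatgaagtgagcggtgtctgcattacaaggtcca

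None of the 8 milk protein genes was called, against 16.5% of all genes and 4% of the 100 brightest, which held 5 of the 8. The 4 arrays of one genotype did not lie wholly above those of the other for any of them (0 of 8), whereas this held for 24.1% of all genes. Their median difference, KO minus WT, was -0.0028 on the log2 scale, and that of all genes tested was -0.02. With same-numbered arrays taken as pairs, 1 of the 8 was called, Lalba (adjusted p = 0.0444 from limma), against 2762 of 14137 genes. The 8 genes fell into a bright group that barely differed between dams and a dimmer group that varied more between dams of the same genotype. In RNA of whole glands, fewer cells of a type and less RNA per cell cannot be told apart.

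The major casein genes came first. Csn1s1, which encodes alpha-S1-casein, was measured at 17.94, 18.03, 17.98 and 17.94 on WT arrays 1 to 4 and at 18.03, 17.93, 17.93 and 18.14 on KO arrays 1 to 4. KO array 4 was the highest and the other KO arrays lay within the WT range or just under it. The difference was 0.03 (standard error 0.09, 95% interval -0.17 to 0.24, adjusted p = 0.815 from limma, Benjamini-Hochberg).

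Csn2, which encodes beta-casein, was at 17.695, 17.77, 17.76 and 17.81 on the WT arrays and at 17.695, 17.72, 17.81 and 17.85 on the KO arrays. Replicate 1 was the lowest and replicate 4 the highest array in both genotypes. The difference was 0.01 (standard error 0.09, 95% interval -0.19 to 0.21, adjusted p = 0.939 from limma). The spans of the genotypes coincided almost whole.

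Csn1s2a encodes an alpha-S2-like casein. Its values were 18.07, 18.15, 18.12 and 18.05 in WT glands and 18.11, 17.99, 18.08 and 18.15 in KO glands, so that KO array 2 was the lowest of the 8 and the others overlapped. The difference was -0.02 (standard error 0.09, 95% interval -0.21 to 0.18, adjusted p = 0.905 from limma).

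Its paralog Csn1s2b behaved otherwise. It was measured at 15.72, 16.62, 16.16 and 17.01 in WT glands and at 16.00, 16.51, 14.59 and 17.18 in KO glands. A single KO array, the third, lay below every other array by more than 1 log2 unit, and the remaining KO values spanned the same range as the WT values. The difference was -0.31 (standard error 0.52, 95% interval -1.50 to 0.88, adjusted p = 0.700 from limma), and without that array it was 0.18 (adjusted p = 0.774). The interval runs from 0.353-fold to 1.84-fold of the WT level, so with 4 dams a genotype a sizeable difference in either direction remains possible.

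Csn3 encodes kappa-casein, the casein that coats the micelle and keeps it in suspension. It was at 15.63, 15.83, 15.62 and 16.23 in WT glands and at 15.34, 15.82, 15.71 and 16.33 in KO glands. Replicate 4 was again the highest in both genotypes, and the genotypes overlapped throughout. The difference was -0.03 (standard error 0.22, 95% interval -0.54 to 0.48, adjusted p = 0.941 from limma).

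Among the whey protein genes, Wap, which encodes whey acidic protein, was the brightest. Its brighter probe was at 18.36, 18.44, 18.44 and 18.33 on the WT arrays and at 18.475, 18.44, 18.475 and 18.475 on the KO arrays. The equal values come from the normalization, which gives each rank among the spots of an array the same value. Spots of a probe were averaged afterwards, so ranks among probes can differ from ranks among spots. Among probes this one was the fifth brightest on KO arrays 1, 3 and 4 and the sixth on KO array 2. All KO values were at or above the WT values, by 0.07 on average (standard error 0.08, 95% interval -0.12 to 0.26, adjusted p = 0.557 from limma). The second Wap probe differed by 0.05 (standard error 0.09, adjusted p = 0.744 in a limma fit over 27653 probes), with overlapping values.

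Glycam1 encodes a mucin-like whey glycoprotein that is also known from lymph node endothelium. It was at 18.11, 18.11, 18.23 and 18.03 in WT glands and at 18.14, 18.15, 18.15 and 18.25 in KO glands. KO array 4 stood apart from the other KO arrays and WT array 3 from the other WT arrays, each on the high side. The difference was 0.06 (standard error 0.09, 95% interval -0.15 to 0.26, adjusted p = 0.689 from limma).

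Lalba, the gene of alpha-lactalbumin, had the largest difference of the 8. It was at 14.97, 15.71, 15.39 and 15.74 on WT arrays 1 to 4 and at 14.67, 15.23, 14.71 and 15.41 on KO arrays 1 to 4. The lowest WT array lay below 2 of the KO arrays, so the genotypes overlapped. The difference was -0.45 (standard error 0.23, 95% interval -0.97 to 0.08), a WT level 1.36-fold that of the KO glands, with an adjusted p of 0.197 from limma. From replicate 1 to replicate 4, each KO array lay off its same-numbered WT array by -0.30, -0.48, -0.68 and -0.32, so the KO array was the lower one in 4 of 4 pairs. When the fit held the replicate number as a block, which removes what arrays of a number share, its 95% interval was -0.72 to -0.17 and its adjusted p was 0.0444, so that 1 of the 8 genes was then called. Leaving out 1 array at a time, without the block, kept the difference between -0.61 and -0.33 and the adjusted p between 0.0788 and 0.391.

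**Figure D1:**
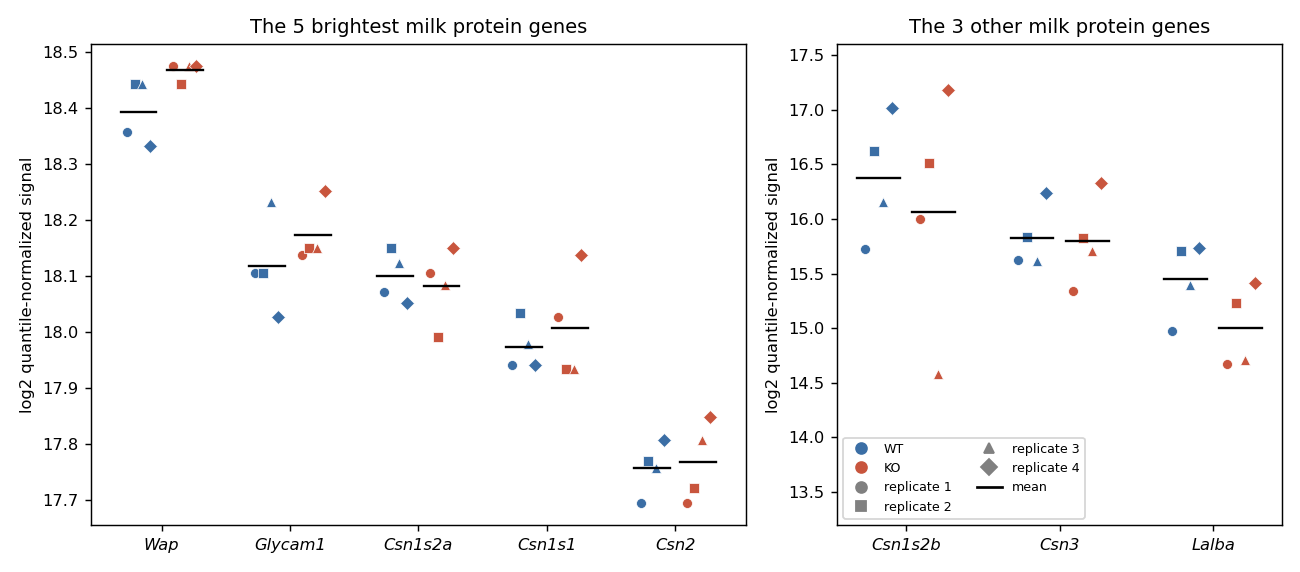
Log2 quantile-normalized signal (vertical axis) of the 8 milk protein genes on the 4 WT (blue) and 4 KO (red) arrays, with the replicate number as the marker and the mean as a line. The 5 brightest genes (left, a narrow axis from below 17.7 to above 18.4) and the 3 others (right) have axes of different range, and WT and KO values overlap or touch for each gene.

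In the 3 dimmer genes, and in the bright gene Csn2, the ends of the range fell on the same replicate numbers in part or in full. For Csn1s2b, Csn3, Lalba and Csn2 the highest WT array and the highest KO array were both replicate 4. For Lalba and Csn2 the lowest were both replicate 1. Over all genes tested, deviations from the genotype means correlated between same-numbered WT and KO arrays at r = 0.219, 0.165, 0.304 and 0.283. These correlations are why the numbers were taken to pair the dams in the fit with the block. Adjusted p-values given without mention of the block come from a fit that left the pairs out. The mean for arrays of different numbers was -0.08, which adds no separate evidence. Deviations from a mean cancel within a genotype, and that ties the value to the same-number correlations. No same-numbered arrays shared a position on their slides. The labels do not say what a number shares.

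The position of these probes among all 41174 probes on an array shows how far apart the bright and the dimmer group lay. The brighter Wap probe ranked between 5 and 8 from the top over the 8 arrays, and the second Wap probe between 8 and 14. Glycam1 ranked between 12 and 20, Csn1s2a between 15 and 23, Csn1s1 between 18 and 30, and Csn2 between 31 and 39. Csn1s2b spread from 69 to 550, Csn3 from 152 to 316 and Lalba from 254 to 506. These ranks order probes by brightness, which also depends on how well each probe binds, and are not an order of transcript amounts.

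No spot of these 9 probes was saturated, all were well above background on 8 of 8 arrays, and none was marked as an outlier by the software. All of them were read from the scan at low detector gain and scaled up. The brighter Wap probe reached between 51.8% and 59.6% of the saturation value of its array, and the second Wap probe between 47.4% and 53.3%. Glycam1 reached between 42.2% and 49.96%, Csn2 between 30.8% and 38.1%, and Lalba between 3.90% and 8.21%.

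Before any normalization between arrays, the signals of the bright group were nearly level. Csn1s1 was the most constant, with 1.09-fold between its highest and lowest array and a coefficient of variation of 2.57%. Over the same arrays Csn1s2a spanned 1.11-fold, Wap 1.16-fold, Glycam1 1.19-fold and Csn2 1.24-fold. The dimmer genes spanned more, Csn3 2.08-fold, Lalba 2.12-fold and Csn1s2b 4.51-fold.

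The arrays themselves were less level than the bright genes. On KO array 3, the brightest by its 75th percentile (747), Csn1s1 had a processed signal of 260539, and on WT array 2, the dimmest (518), it had 258579. For Csn1s2b the same arrays gave 26697 and 92499, the opposite order to their overall brightness. Among all genes tested the median span was 2.0-fold, and among the 50 brightest genes it was 1.37-fold. Of those 50 genes 2% were called, against 9.11% of the next 450, 15.6% of the next 1500 and 16.9% of the remaining 12137. Whether the constancy of the bright milk genes belongs to the RNA of these glands or to probes of this brightness was not tested.

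**Figure D2:**
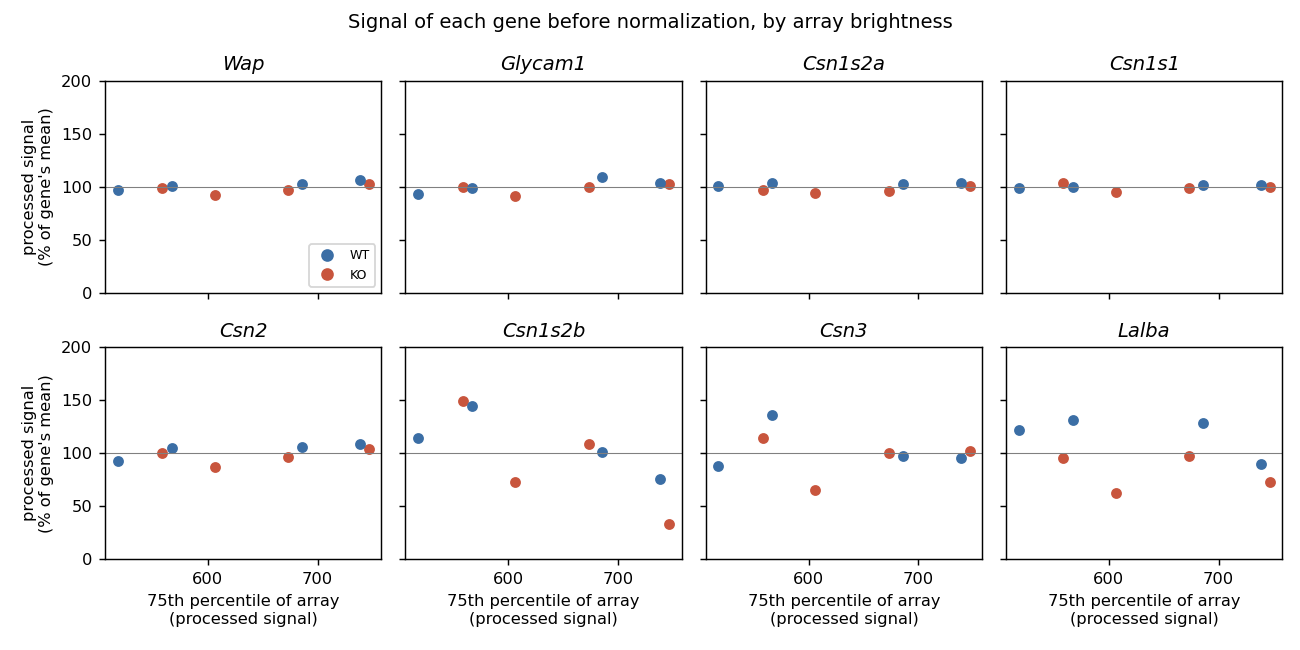
Processed signal of each milk protein gene before normalization, as a percentage of its mean over the 8 arrays (vertical axis), against the 75th percentile of the processed signal of the array (horizontal axis, from 518 to 747), WT in blue and KO in red. Wap, Glycam1, Csn1s2a, Csn1s1 and Csn2 stay close to 100% over the whole range, while Csn1s2b, Csn3 and Lalba scatter.

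After quantile normalization the contrast remained. Between arrays of a genotype, the standard deviation was 0.04 for Wap, 0.06 for Csn1s2a and Csn2, 0.07 for Glycam1 and 0.08 for Csn1s1, against a median of 0.23 over all genes tested and of 0.14 over the 100 brightest. For Lalba it was 0.36, for Csn3 0.35 and for Csn1s2b 0.87, larger than in 97.3% of all genes. At the top of the array this spread is partly set by the method: Mfge8, the brightest gene on every array, had the same normalized value on all of them and so a spread of 0. With each array instead scaled to its 75th percentile, the standard deviation within a genotype was 0.17 for Wap, 0.16 for Glycam1, 0.19 for Csn1s2a, 0.21 for Csn1s1 and 0.17 for Csn2, still under the median of 0.23 over all genes.

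**Figure D3:**
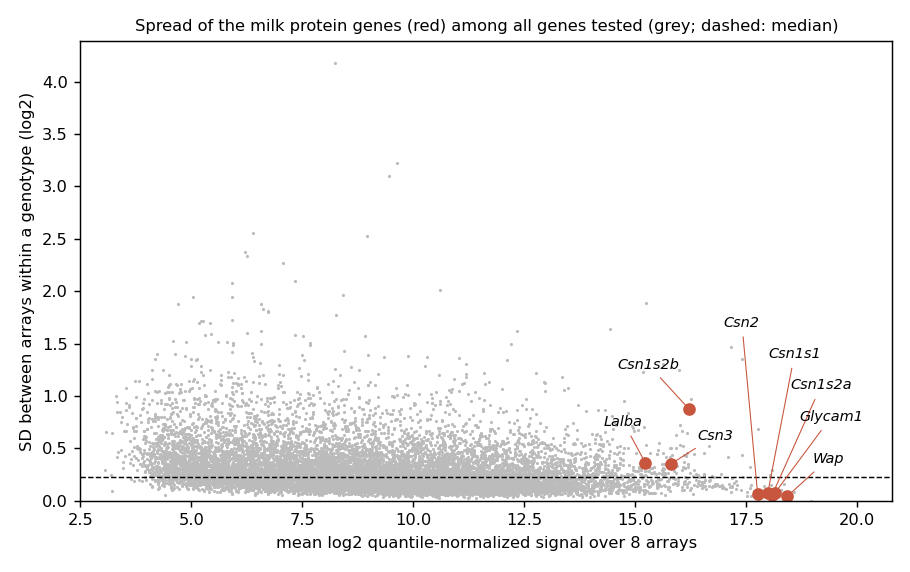
Standard deviation between arrays within a genotype (vertical axis, log2) against the mean log2 quantile-normalized signal (horizontal axis) for all 14137 genes tested (grey) and the 8 milk protein genes (red, named), with the median over all genes (0.23) as a dashed line. The 5 bright milk protein genes lie near 0, Csn3 and Lalba above the median, and Csn1s2b at 0.87.

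The scaling of the arrays decided the sign of the bright group but made none of its genes pass. With quantile normalization 4 of the 8 genes had the lower mean in KO glands, as did 52.4% of all genes tested. With the 75th percentile scaling, with the median of the detected probes or with no normalization between arrays, all 8 were lower. For the 5 bright genes, differences ranged from -0.02 to 0.07 with quantile normalization, from -0.14 to -0.07 with the 75th percentile and from 0.09 to 0.16 with cyclic loess. Under quantile normalization their 95% intervals stayed between 1.16-fold lower and 1.20-fold higher in the KO glands. The lowest bound of the 5 intervals under the 75th percentile scaling was -0.46, for Csn1s2a. Lalba was lower in the KO glands under every scaling tried, by 0.42 to 0.60 on the log2 scale, and passed under none of them without the block.

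**Figure D4:**
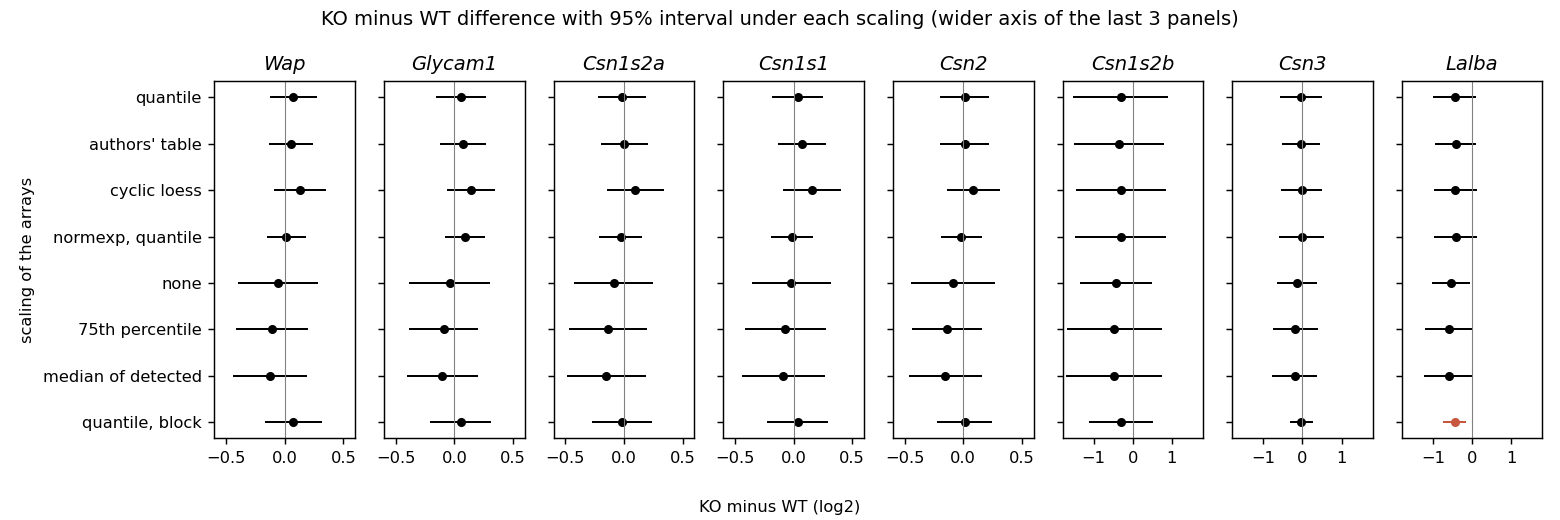
Difference KO minus WT (horizontal axis, log2) with its 95% interval for each milk protein gene under 7 ways of scaling the 8 arrays and, in the last line, with quantile normalization and the replicate number as a block. The last 3 panels have a wider axis, the bright genes change sign between scalings with intervals that include 0, and Lalba with the block (red) is the 1 value with an adjusted p under 0.05.

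Regulators of milk protein genes were described next, as a list of 18 genes of prolactin signalling and its transcription factors. None of the 18 was called, against 16.5% of all genes tested. In this list 9 were lower on average, and the median difference was 0.04. Stat5a, which carries the prolactin signal to milk protein genes, was at 12.31, 12.61, 12.43 and 12.50 in WT glands and at 11.11, 11.99, 11.61 and 12.26 in KO glands. All its WT values lay above all its KO values, and 24.1% of all genes tested had no overlap in either direction. In this list Gata3, Ptpn1 and Ptpn11 had none either, with the KO values above. The difference of Stat5a was -0.72, with an adjusted p of 0.0632 from limma, and of 0.0404 with the replicate number as a block. Stat5b, the close paralog of Stat5a, differed by -0.03 (adjusted p = 0.905 from limma).

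Other regulators lay on both sides. Elf5, the luminal factor that drives alveolar differentiation, differed by -0.35 (adjusted p = 0.107 from limma), and Prlr, the prolactin receptor, by -0.20 (adjusted p = 0.473). Gata3, a luminal fate factor, was higher by 0.49 on average (adjusted p = 0.0644). Of the genes that Stat5 is known to induce as a brake on the same pathway, Cish differed by 0.31 (adjusted p = 0.399) and Socs2 by 0.53 (adjusted p = 0.308).

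Partners of caseins and of lactose synthesis, transporters among them, were a list of 10, of which 8 were tested. Fam20c and Slc34a2 were called, both lower, where 8.96% of all genes tested were called lower. The median difference of the list was -0.34. Fam20c encodes the Golgi kinase that phosphorylates caseins. It was at 13.95, 14.18, 14.18 and 13.99 in WT glands and at 13.24, 13.41, 13.29 and 13.19 in KO glands, with no overlap and little spread in either genotype. It fell by 0.79 on the log2 scale in the KO glands (standard error 0.10, adjusted p = 0.00621 from limma), a WT level 1.73-fold that of the KO glands, and was called under every alternative. Fam20a, which encodes its activating partner, differed by -0.37 (adjusted p = 0.0919).

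Slc34a2 encodes a phosphate transporter of the luminal cell membrane. It was at 11.38, 12.08, 11.25 and 11.90 in WT glands and at 9.52, 9.83, 8.59 and 10.59 in KO glands, again without overlap. It fell by 2.02 (standard error 0.39, adjusted p = 0.0176 from limma), and lost its call without WT array 2 (adjusted p = 0.0502). B4galt1, the catalytic partner of Lalba in lactose synthase, was at 16.36, 16.65, 16.60 and 16.22 in WT glands and at 15.76, 16.18, 15.12 and 16.56 in KO glands. Its genotypes overlapped and it differed by -0.56 (standard error 0.28, adjusted p = 0.191). Both subunits of lactose synthase were therefore lower on average in the KO glands and neither passed the test without the replicate block, with which Lalba did and B4galt1 did not (adjusted p = 0.200).

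A list of 24 other milk proteins, of which 22 were tested, held 2 genes called higher and 2 called lower, with a median difference of -0.08. These counts lay near the shares over all genes tested, 7.53% called higher and 8.96% called lower. Ltf encodes lactoferrin, the iron-binding protein of milk and of neutrophil granules. It was at 16.38, 16.00, 16.56 and 16.14 in WT glands and at 17.94, 17.51, 17.30 and 17.58 in KO glands, every KO array above every WT array. It rose by 1.31 (standard error 0.17, adjusted p = 0.00660 from limma), or 2.48-fold, and was called under every alternative.

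Apod, which encodes a lipid-binding lipocalin, rose by 0.82 (adjusted p = 0.0198 from limma) and lost its call without KO array 1, 2 or 3 (adjusted p = 0.0552, 0.0517 and 0.0563). Pthlh, which encodes the hormone that draws calcium from bone during lactation, fell by 3.08 (adjusted p = 0.0277). Its WT arrays were at 9.83, 11.26, 10.63 and 11.27 and its KO arrays at 7.29, 6.76, 6.65 and 9.98, with KO array 4 inside the WT range, and the call was lost without WT array 2, 3 or 4 or KO array 1, 2 or 3 (adjusted p from 0.0552 to 0.0774). Muc1, a mucin of the milk fat globule membrane, fell by 0.78 (adjusted p = 0.0466), a call lost without any single array except KO array 1 (adjusted p from 0.0598 to 0.0978). The Muc1 call was also lost with another background correction (0.0528), with dim probes kept (0.0694) and with no normalization between arrays (0.0822). By the t-test of the methods, Muc1 (adjusted p = 0.0924) and Pthlh (0.0691) both lost their calls. Trf, which encodes transferrin, differed by -0.09 (adjusted p = 0.527) and Spp1, which encodes osteopontin, by 0.08 (adjusted p = 0.627). Folr1 (difference -0.60, adjusted p = 0.0287) and Cp (0.64, adjusted p = 0.0305) passed in limma with the replicate number as a block and not without it. Ccl28 was dim and uneven, with a mean of 7.54 in WT glands and 4.30 in KO glands (standard deviation 2.28 in KO glands). On KO arrays 1 and 3 it lay below 3.82, the mean background floor used to bound Zbtb7b in KO glands. The size of its difference is therefore uncertain.

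**Figure D5:**
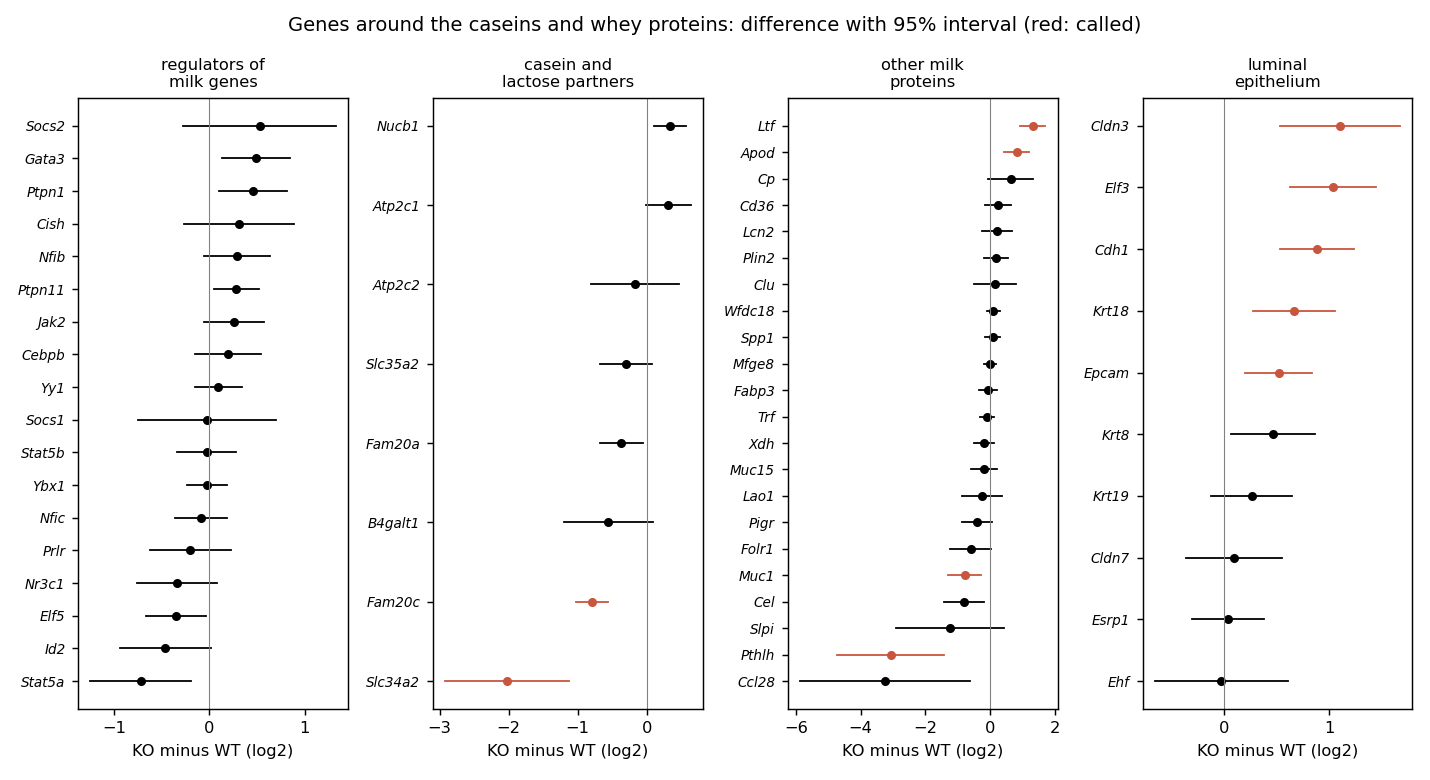
Difference KO minus WT (horizontal axis, log2, of different range in each panel) with its 95% interval for the tested genes of the regulators of milk genes (18), the casein and lactose partners (8), the other milk proteins (22) and the luminal epithelium markers (10), with called genes in red. None of the regulators is red, Fam20c and Slc34a2 are the partners called lower, and the 5 luminal markers called are all higher.

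Markers of the cells that could make up the tissue were read on the same arrays. Of 10 luminal epithelium markers, 5 were called higher (Elf3, Cdh1, Cldn3, Krt18 and Epcam) and 0 lower, with a median difference of 0.49. Over all genes tested, 7.53% were called higher and 8.96% lower. The mean of the list ranged from 12.40 to 12.89 over the WT arrays and from 13.13 to 13.29 over the KO arrays. Elf3, a luminal transcription factor, rose by 1.03 (adjusted p = 0.0140 from limma) and Cdh1, which encodes E-cadherin, by 0.88 (adjusted p = 0.0143). Elf3 was called under every alternative and Cdh1 under all but no normalization between arrays (adjusted p = 0.0670). The calls of Cldn3, Krt18 and Epcam were lost without KO array 1, 2 or 3 (adjusted p from 0.0597 to 0.105). Those of Krt18 and Epcam were also lost without WT array 2 or 4 (0.0686 to 0.0927), and that of Epcam without WT array 3 (0.0845) or KO array 4 (0.0598) as well. Epcam lost its call with the replicate number as a block (0.0598). Krt18 lost its call with the 75th percentile scaling (0.0626), with the median of the detected probes (0.0645) and in the authors' table (0.0616). With no normalization between arrays Cldn3, Krt18 and Epcam all lost theirs (0.0892, 0.238 and 0.242). The part of these markers in the values of the milk protein genes was not tested.

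The counts that follow stand beside 7.53% called higher and 8.96% called lower over all genes tested. No basal epithelium marker of 8 and no macrophage marker of 5 tested was called. Of 8 adipocyte markers Cfd and Plin1 were called higher, with a median difference of 0.54 and a list mean that ranged from 12.70 to 13.43 over the WT arrays and from 13.37 to 13.55 over the KO arrays. Of 7 fibroblast and endothelium markers Dcn was called higher (list means 12.38 to 12.56 and 12.46 to 12.82), and of 8 lymphocyte markers Cd79b was called higher and Cd3e lower (6.23 to 7.04 and 6.25 to 6.67). Each of these 5 calls was lost without 1 of several arrays (adjusted p up to 0.106), and those of Cfd and Dcn also with the 75th percentile scaling (0.0537 and 0.05998). Under the replicate block Cd79b lost its call (0.0744). The lowest mean level of a marker in either genotype was 3.75, in the lymphocyte list, and the part of these cells in the milk protein values was not tested.

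The caseins lie together in 1 cluster on chromosome 5, and Wap, Lalba and Glycam1 lie alone. Among up to 3 protein-coding genes on either side of each gene in the RefSeq table there were 25 neighbours, of which 14 were tested. A pair of them was called, both lower, a count near the 16.5% called among all genes tested. Tbrg4 beside Wap fell by 0.69 (standard error 0.14, adjusted p = 0.0196 from limma). Olfr282 beside Lalba fell by 0.79 (standard error 0.16, adjusted p = 0.0195 from limma), at a low level of 4.94 in WT glands and 4.15 in KO glands. Tbrg4 lost its call without WT array 3 or KO array 1, 2 or 3 (adjusted p from 0.0514 to 0.0585) and Olfr282 without WT array 2 or KO array 3 (0.0517 and 0.0554). Tbrg4 also lost it without normalization between arrays (0.0698). Olfr282 lost it with another background correction, normexp, where its difference was -0.21 (adjusted p = 0.110 from limma). Beside the caseins, Sult1d1 and Sult1e1 were tested and differed by -0.63 (adjusted p = 0.558) and -1.35 (adjusted p = 0.206), each with a spread above 1 log2 unit within a genotype.

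The pattern over dams, after the mean of each genotype was taken out, was compared with that of every gene tested as Pearson's r over the 8 arrays with the mean of the 8 milk protein genes. Since the bright genes hardly vary, that mean followed Csn1s2b (r = 0.943) and Lalba (r = 0.933) and had no relation to Wap (r = -0.03). The genes most like it were Tmem71 (r = 0.987), Vopp1 (0.983), Aacs (0.982), Tmem120b (0.981) and Ddt (0.980). None of these 5 was called in limma (adjusted p from 0.0635 to 0.743). These values describe 8 arrays that share slides and normalization, and carry no test.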

How the data were processed

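Each of 8 dams, 4 WT and 4 KO by the labels, had 1 one-colour Agilent mouse array. The methods call the replicates independent biological sets. The authors deposited scanner output in which the intensity of each spot had been background-subtracted by Agilent Feature Extraction 10.7.3.1 and not normalized between arrays, and a table of log2 values that the authors had quantile-normalized in GeneSpring, used as an alternative only (r above 0.998 with the log2 intensities of the same array). Its column medians were 6.32.

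Log2 processed intensities of non-control spots were quantile-normalized with limma 3.58.1 in R 4.3.3, outlier spots were left out and spots of a probe averaged. Probes were named by accession through the RefSeq table of GRCm38.p6 (27479 of 41174 probes matched); the files name build mm9, so no probe coordinates are given. A probe entered if 1 genotype or both had it well above background on 4 of 4 arrays, and the brightest probe stood for a gene. Genes were compared by limma (lmFit, eBayes, two-sided) with Benjamini-Hochberg adjustment over 14137 genes, called at an adjusted p under 0.05. On simulated data with the real means and spreads, 55% of 100 genes changed by 1 log2 unit and 94% of 100 changed by 2 were called, with 7 false calls. The number of arrays limits the precision.

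Alternatives were other scalings, background correction, filters, probes and tests, the replicate block, and leaving out each array. The genes, lists and tests were chosen with earlier results of these data known. Named are the 8 genes, Zbtb7b, up to 5 called genes of each list, called neighbours and the 5 most similar genes. Of those not called, Stat5a, Stat5b, Elf5, Prlr, Gata3, Cish, Socs2, Fam20a, B4galt1, Trf, Spp1, Folr1, Ccl28, Cp, Sult1d1, Sult1e1 and Mfge8 were named after their values were seen. So were Ptpn1 and Ptpn11. Same-numbered arrays were taken as pairs because each of their 4 correlations was over 0.1.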

Additional observations from a re-analysis of the deposited data

Results flagged for a closer look

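The most extreme array of each of 54 groups of 4 was compared with the span of its group, and 3 groups had a value far from the rest, where chance sets apart about 1 in 20. Wap was at 18.44 on KO array 2 and at 18.475 on the other 3 KO arrays, with a rank among probes of 6 on KO array 2 and 5 on the others. Glycam1 was at 18.25 on KO array 4, above the 18.14 to 18.15 of the other KO arrays, and without that array its difference was 0.03. The luminal keratin gene Krt18 was at 16.58 on KO array 4 and between 16.99 and 17.02 on the other KO arrays. The causes were not tested.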

How the results depend on the processing

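Without the replicate block, 0 of the 8 milk protein genes was called under every alternative run. Signs of the bright genes followed the scaling. With the 75th percentile the differences were -0.071 for Csn1s1, -0.14 for Csn2, -0.11 for Wap and -0.089 for Glycam1. With the median of the detected probes they were -0.086, -0.15, -0.12 and -0.10 in that order, and with no normalization between arrays -0.022, -0.088, -0.059 and -0.040. Csn1s2a was at 0.10 with cyclic loess and 0.0040 in the authors' table, and with normexp Csn1s1 was at -0.013 and Csn2 at -0.016. The median of all genes stayed within 0.07 of 0 under each scaling.

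The replicate numbers were taken to pair the dams from correlations in these same data, since the labels do not say what a number shares. With the replicate block Lalba was called (-0.45, adjusted p = 0.0444 from limma), 1 of the 8 genes. The block changed no call of the other 7.

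Called genes numbered 2331 in the main analysis, 935 without normalization (68.4% of them lower, against 54.3%) and 1389 by the methods' t-test. In the lists 16 were called, against 8 without normalization, 7 by the t-test and 10 where dim probes were kept. The calls lost by the t-test were those of Pthlh, Muc1, Cldn3, Krt18, Epcam, Cfd, Plin1, Cd3e and Cd79b (adjusted p from 0.0527 to 0.0924).

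Leaving out 1 array, the difference ranged from -0.0095 to 0.058 for Csn1s1, -0.039 to 0.014 for Csn1s2a, -0.68 (without KO array 4) to 0.18 (without KO array 3) for Csn1s2b, -0.016 to 0.036 for Csn2, -0.20 (without KO array 4) to 0.12 (without KO array 1) for Csn3, 0.053 to 0.090 for Wap, -0.61 to -0.33 for Lalba and 0.025 to 0.093 for Glycam1. The 8 genes had 0 calls each time. All genes called ranged from 515, without KO array 3, to 3070, without WT array 1, and genes called in the lists from 5 to 17, without the same arrays. The causes were not tested.

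Normexp on mean signals was not run, since the scanner output used here holds median signals only. Normexp on these and no normalization were chosen after seeing the data. At 4 dams a genotype, the interval of Csn1s2b, -1.50 to 0.88, was too wide to tell a sizeable difference in either direction from none.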
